A study of Homo sapiens with 6 samples.

Results

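Described here are 4 genes, the glycolytic PGK1 and GAPDH and the mitochondrial COX4I1 and MTX1, compared between LNCaP and LNCaP-AI cells. They were chosen by identity among the 20 control genes that the array spots 10 times each, out of 58965 transcript features on each array. Earlier results of these data were known when the genes and tests were chosen. The files give each of these spots as a RefSeq transcript, NM_000291 for PGK1, NM_002046 for GAPDH, NM_001861 for COX4I1 and NM_002455 for MTX1. All 4 passed the filter on dim signals, which kept 39107 features with signal well above background on 3 or more of the 6 arrays.

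LNCaP is a human prostate cancer cell line that depends on androgen and was kept in medium with fetal bovine serum. LNCaP-AI was derived from it by long-term culture in medium whose serum had been charcoal-stripped, a treatment that removes steroid hormones, so the lines differed in serum as well as in culture history. The labels name a single derived line and no further genetic change. The titles of its arrays carry a passage-like number. The study's text gives no passage number for LNCaP-AI, so the passage hybridized was not settled. For each line, 3 arrays (Arraystar Human LncRNA Microarray V3.0, a single dye) were hybridized. The series gives them as independent samples without saying how the cultures were separated, and the p-values describe the spread between these arrays. Arrays of LNCaP are lettered a to c and those of LNCaP-AI are numbered 1 to 3. The prostate markers that would check the lines are not among the features that the files name, so the cell type was taken from the labels.

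Glycolysis breaks glucose down to pyruvate in the cytosol and yields ATP directly. GAPDH oxidizes glyceraldehyde 3-phosphate and phosphoglycerate kinase, the product of PGK1, makes ATP in the step that follows. Respiration takes electrons from fuel oxidation to oxygen through cytochrome c oxidase, of which COX4I1 encodes a nuclear-encoded subunit, and metaxin 1, the product of MTX1, sits in the outer mitochondrial membrane and takes part in protein import. GAPDH is also a common reference gene in expression assays, and normal prostate epithelium is known for a metabolism that favours citrate secretion.

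Of these genes, PGK1 was higher in LNCaP-AI and the other 3 did not pass the test. PGK1 signal was 1.53-fold higher, with a 95% interval of 1.27 to 1.84. The fold changes of GAPDH, COX4I1 and MTX1 lay at 0.990, 1.04 and 0.910, each with an interval that included no change. With quantile normalization the fold changes of the glycolytic genes PGK1 and GAPDH differed from each other. The ratio of PGK1 to each of the other 3 genes was itself higher in LNCaP-AI with this normalization. The calls of PGK1 and of its ratios to GAPDH and COX4I1 were lost when some single arrays were left out. These calls, and that of the ratio to MTX1, were also lost with the slide as a block. Intensities below are the scanner's background-subtracted units, and log2 values are quantile-normalized across the 6 arrays and averaged over a gene's spots. Signal depends on each probe's binding, so signals of different genes were not compared as RNA levels.

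Signal quality bore on these values as follows. Between 64.5% and 67.3% of the features on an array were well above background, and saturation affected 0 spots. LNCaP replicate a was the brightest array, with a median intensity of 85.8 against 64.4 to 77.6 on the others. LNCaP replicates a and b lay on slide 1, and LNCaP replicate c lay on slide 2 with all 3 LNCaP-AI arrays. LNCaP was thus the line present on both slides, and within slide 2 it had 1 array.

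**Figure D1:**
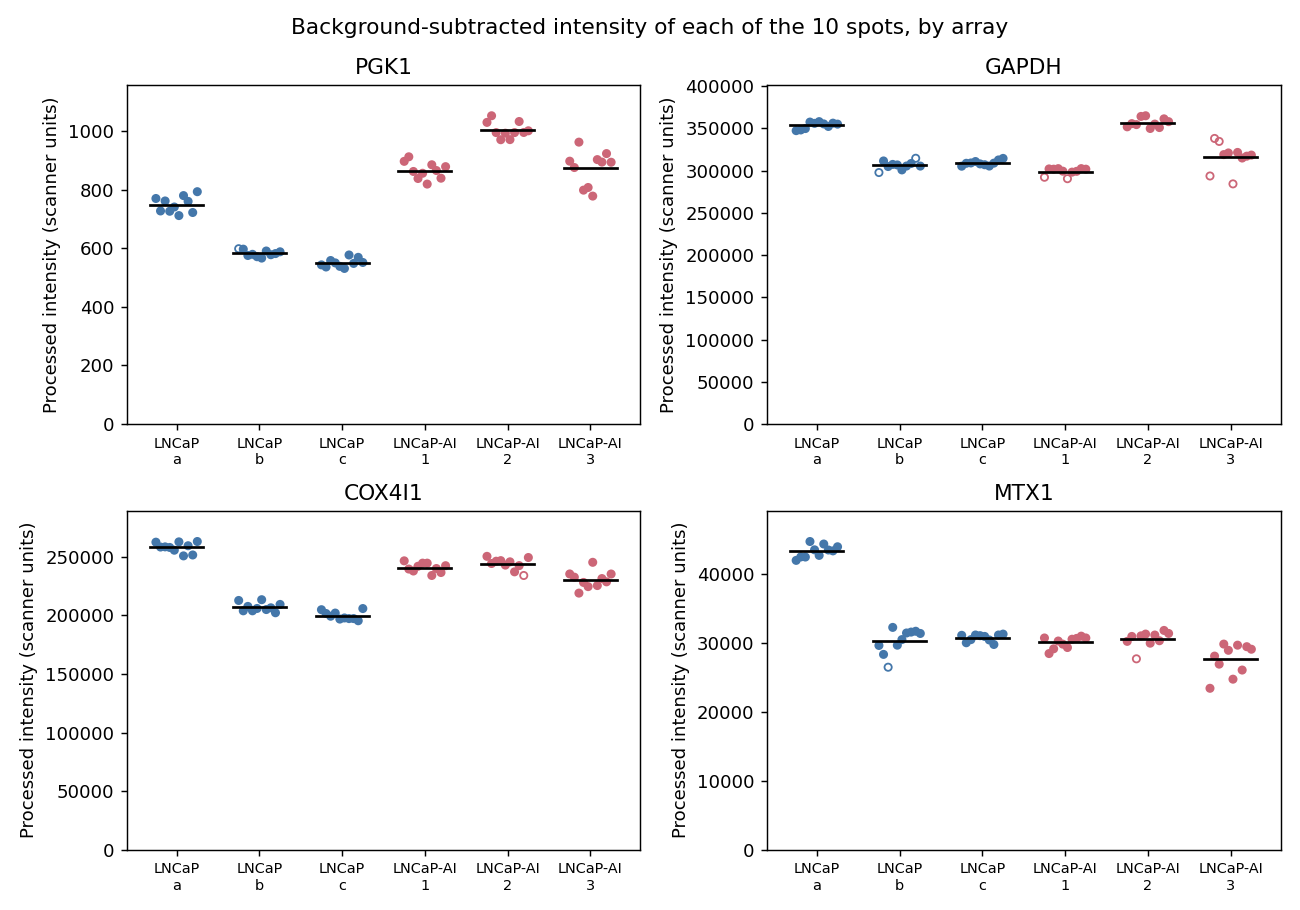
Background-subtracted intensity (scanner units, linear axis from 0) of each of the 10 spots of PGK1, GAPDH, COX4I1 and MTX1 on the 3 LNCaP (blue) and 3 LNCaP-AI (red) arrays. Open symbols are spots marked as outliers and black lines are the means of the 10 spots on an array. The PGK1 array means lie between 550 and 749 in LNCaP and between 865 and 1003 in LNCaP-AI, whereas the ranges of the lines overlap for the other 3 genes.

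PGK1 had a mean intensity over its 10 spots of 749, 583 and 550 on LNCaP replicates a, b and c. On LNCaP-AI replicates 1, 2 and 3 the mean intensity was 865, 1003 and 873. Every LNCaP-AI array lay above every LNCaP array before any scaling, with the dimmest LNCaP-AI array 1.15 times the brightest LNCaP array. The line means were 627 ± 107 and 914 ± 77.6 (SD, n = 3). After quantile normalization the log2 signal was 9.25, 9.32 and 9.18 in LNCaP and 9.95, 9.77 and 9.87 in LNCaP-AI, with a gap of 0.45 between the nearest arrays of the lines. The arrays of the lines did not overlap on this scale either, and LNCaP replicate a, the highest of its line in raw intensity, fell between the other LNCaP arrays.

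The log2 fold change of PGK1 was 0.61 (SE 0.11, 95% interval 0.35 to 0.88), with an adjusted p of 0.0132 by limma with Benjamini-Hochberg adjustment over all tested features. The exact permutation p was 0.1, two-sided, the smallest that 3 arrays against 3 allow. Each of the 10 spots, read on its own with outlier-marked readings kept, had all LNCaP-AI arrays above all LNCaP arrays. The spot log2 fold changes ran from 0.56 to 0.68. The spots share 1 probe and 1 RNA sample on an array, so they show the precision of the reading and are not further replicates. In the order of signals on an array, 18.6% to 19.7% of the features were brighter than PGK1 in LNCaP and 14.6% to 15.6% in LNCaP-AI.

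The change of PGK1 was below 2-fold, and 15.1% of the tested features had a larger log2 fold change in either direction. The adjusted p of PGK1 by limma was 0.0520 when LNCaP replicate a was left out, 0.0530 when LNCaP replicate c was and 0.0625 when LNCaP-AI replicate 3 was. A fit that took the slide as a block gave PGK1 a log2 fold change of 0.69 with an adjusted p of 0.0919 by limma. This block estimate is the difference on slide 2 itself, where the LNCaP-AI mean was 0.69 above the single LNCaP array on the log2 scale. Against the 2 LNCaP arrays of slide 1 the LNCaP-AI mean was 0.58 above.

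The PGK1 promoter is shown because hypoxia-inducible factor 1 is known to act on this gene. The sequence is RefSeq's, from GRCh38.p14, for the 250 bases before the annotated start on the plus strand, chrX:78103998-78104247, and capitals mark the core of the hypoxia response element, ACGTG or GCGTG on either strand.
PGK1: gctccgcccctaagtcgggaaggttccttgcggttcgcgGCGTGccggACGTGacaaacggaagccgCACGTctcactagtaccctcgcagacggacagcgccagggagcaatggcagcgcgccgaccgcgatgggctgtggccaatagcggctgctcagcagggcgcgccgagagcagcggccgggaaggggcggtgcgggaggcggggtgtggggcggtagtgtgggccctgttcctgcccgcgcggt
The 3 matches begin 211, 202 and 183 bases upstream of the start. The same letters occurred in 43.2% of 35116 RefSeq promoter windows of this length, and a match is a description of the sequence. The window of PGK1 held no E-box (CACGTG), no ETS core (CCGGAA), no NRF-1 core (TGCGCA) and no TATA box (TATAAA), which occurred in 6.34%, 14.5%, 6.89% and 10.7% of the windows.

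GAPDH had a mean intensity of 353630, 306348 and 309075 on LNCaP replicates a, b and c. On LNCaP-AI replicates 1, 2 and 3 it was 299011, 356707 and 316313. LNCaP-AI held both the lowest and the highest array, so the lines overlapped. The log2 signal was 18.33, 18.34 and 18.26 in LNCaP and 18.26, 18.30 and 18.33 in LNCaP-AI, and the log2 fold change was -0.01 (SE 0.11, 95% interval -0.26 to 0.23). The adjusted p was 0.952 by limma, and the interval corresponds to a fold change of 0.834 to 1.18.

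GAPDH was read near the top of the signal range without reaching its limit. Between 22 and 34 features were brighter on an array, and its brightest spot stood at 46.9% of the saturation value. Quantile normalization sets the few brightest features of every array to nearly the same values, which bears on a gene in this position. With scaling to the 75th percentile in its place, the log2 fold change of GAPDH was 0.10 with an adjusted p of 0.653 by limma, so its sign was not settled. On LNCaP-AI replicate 3, 4 of the 10 GAPDH spots were marked as outliers, and the spots had a coefficient of variation of 5.17% against 0.956% to 1.57% on the other arrays.

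The promoter window of GAPDH ends at a start site that lies 747 bases inside the annotated gene, and it is not printed. It held 1 CACGTG E-box, which reads as a hypoxia core on both strands, and 1 NRF-1 core. RefSeq also lists 65 pseudogenes named after GAPDH, against 2 each for PGK1 and COX4I1. Probe sequences were not analysed here, so binding of their transcripts to the probe was not assessed.

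COX4I1 had a mean intensity of 257883, 206936 and 199702 on LNCaP replicates a, b and c. On LNCaP-AI replicates 1, 2 and 3 it was 240665, 243781 and 230442. The 3 LNCaP-AI arrays lay close together and within the LNCaP range, whose top was replicate a. The log2 signal was 17.82, 17.86 and 17.64 in LNCaP and 17.95, 17.73 and 17.82 in LNCaP-AI, and the log2 fold change was 0.06 (SE 0.12, 95% interval -0.23 to 0.35). The adjusted p was 0.810 by limma, and LNCaP-AI was higher in 5 of 9 pairs of arrays.

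All 10 COX4I1 spots had a higher mean in LNCaP-AI, by 0.01 to 0.07 on the log2 scale, and 0 of them had lines that did not overlap. The spots thus repeated the array means closely and added no separation of the lines. Against the LNCaP array of its own slide the LNCaP-AI mean was higher by 0.19, and against slide 1 the difference was -0.01.

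The COX4I1 promoter is shown because ETS-family factors such as NRF-2 are known to act on genes of cytochrome c oxidase. The sequence is the 250 bases before the RefSeq start on the plus strand of GRCh38.p14, chr16:85799445-85799694, with the ETS core CCGGAA on either strand in capitals.
COX4I1: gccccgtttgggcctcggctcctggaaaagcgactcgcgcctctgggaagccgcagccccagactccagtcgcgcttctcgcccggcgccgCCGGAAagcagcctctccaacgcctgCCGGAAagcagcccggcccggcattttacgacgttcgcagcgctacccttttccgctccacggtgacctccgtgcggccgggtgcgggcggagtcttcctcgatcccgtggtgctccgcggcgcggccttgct
The 2 matches begin 159 and 133 bases upstream of the start. This window held 0 hypoxia cores and no match to the other words. MTX1 has 2 promoter windows, and only the first was searched. That window held none of the 5 words.

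MTX1 had a mean intensity of 43330, 30320 and 30766 on LNCaP replicates a, b and c. On LNCaP-AI replicates 1, 2 and 3 it was 30091, 30606 and 27647. LNCaP replicate a stood apart at 1.42 times the mean of the other LNCaP arrays, and the remaining LNCaP arrays overlapped with LNCaP-AI. The log2 signal was 15.06, 15.02 and 15.00 in LNCaP and 15.02, 14.76 and 14.89 in LNCaP-AI, so replicate a no longer stood apart after normalization. The log2 fold change was -0.14 (SE 0.12, 95% interval -0.41 to 0.14) with an adjusted p of 0.505 by limma.

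The MTX1 mean was lower in LNCaP-AI at all 10 spots, with spot log2 fold changes of -0.22 to -0.09, and LNCaP-AI was higher in 1 of 9 pairs of arrays. At 1 spot all LNCaP-AI arrays were below all LNCaP arrays. The exact permutation p was 0.2, two-sided. RefSeq lists a pseudogene of MTX1, MTX1LP.

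The share of features that passed the test is the background for these counts. Of the tested features, 5714 (14.6%) had an adjusted p under 0.05 by limma (2887 higher in LNCaP-AI, 2827 lower), and 1 of the 4 genes was among them. With a minimum of 2-fold the share was 5.48%, and 0 of the 4 genes were past it. The arrays of the lines did not overlap for 35.0% of the features and for 1 of the 4 genes. The median log2 fold change was -0.02 over all tested features and 47.9% were higher in LNCaP-AI, while 2 of the 4 genes, PGK1 and COX4I1, were higher.

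Among the 20 control genes PGK1 had the largest log2 fold change in size, MTX1 the 9th, COX4I1 the 14th and GAPDH the 19th. The PGK1 probe was among the dimmest of the 20, with only RPL10 and GRM4 dimmer. Its mean intensity in LNCaP was 627, against 323017 for GAPDH, 221507 for COX4I1 and 34805 for MTX1. The part of signal level in the differences between fold changes was not tested. PGK1 was the 1 control gene that passed the test, and the arrays of the lines did not overlap for 8 of the 20. ARHGDIA came next to the threshold with a log2 fold change of 0.40 and an adjusted p of 0.0506 by limma. RPL10, a ribosomal protein gene, had the lowest value, -0.38. Its probe was dim, with a mean intensity of 131 in LNCaP and 94.3 in LNCaP-AI. The median feature of an array lay at 64.4 to 85.8. The ribosomal protein genes RPLP1 (-0.05) and RPS18 (-0.03) lay near 0. GAPDH, with ACTB and EIF3D, was among the control genes nearest to 0.

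**Figure D2:**
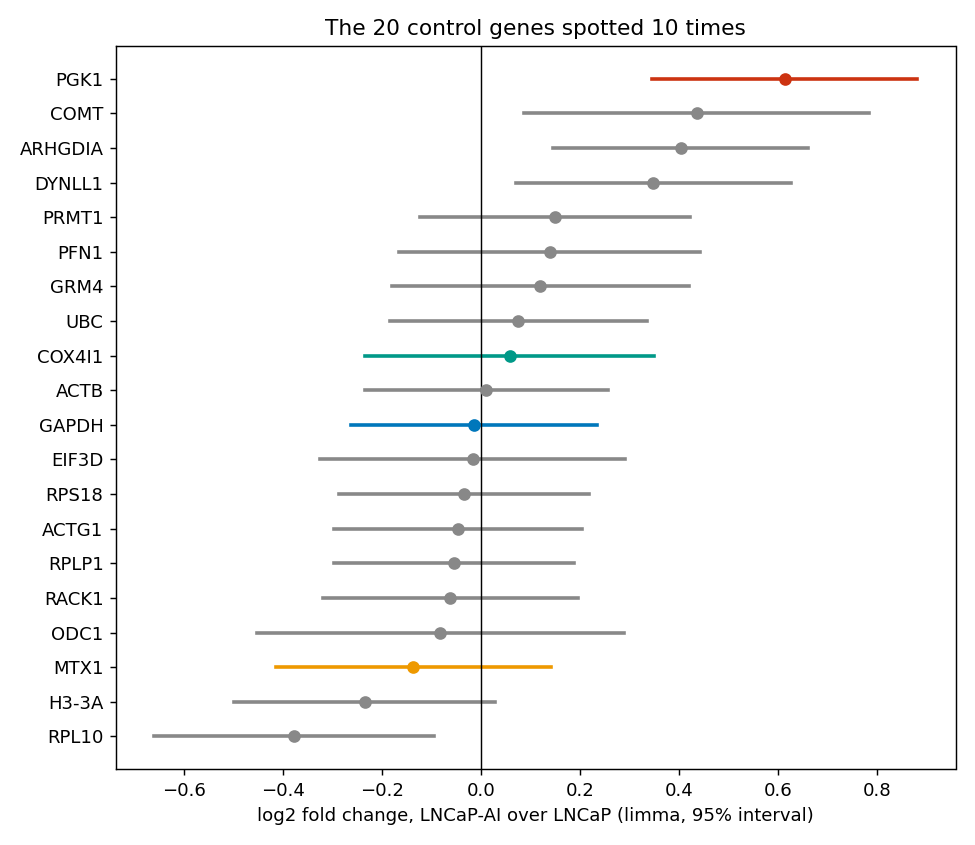
log2 fold change of LNCaP-AI over LNCaP (limma, x axis) with its 95% interval for the 20 control genes spotted 10 times, in order of the fold change. Colored symbols are PGK1 (0.61), COX4I1 (0.06), GAPDH (-0.01) and MTX1 (-0.14), and grey symbols are the other 16 genes. PGK1 lies farthest from 0.

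Over the 6 arrays the control gene most like PGK1 was ARHGDIA, with a Pearson's r of 0.99 between log2 signals. GAPDH was most like ACTG1 (r = 0.85), a cytoplasmic actin, COX4I1 most like EIF3D (r = 0.92), a translation initiation factor subunit, and MTX1 most like RPL10 (r = 0.84). These correlations over 6 arrays are descriptions, and the RPL10 probe was dim. The arrays share their line, slide and normalization, and the r of PGK1 with ARHGDIA includes the difference between the lines in both genes.

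Whether the genes differed from each other was tested with the ratio of 2 genes on the same array, in which a factor common to all features of the array cancels. Quantile normalization is not such a factor, and its effect on the ratios is given with the tests of PGK1. There were 6 pairs, with limma adjustment over all tested features. Taken relative to the mean of the LNCaP arrays, the log2 ratio of PGK1 to GAPDH was -0.02, 0.04 and -0.03 in LNCaP and 0.75, 0.53 and 0.60 in LNCaP-AI. The lines did not overlap, and the fold change of PGK1 exceeded that of GAPDH by 0.63 on the log2 scale (SE 0.11, 95% interval 0.36 to 0.89, adjusted p = 0.0122 by limma). This glycolytic pair thus differed 1.55-fold between the lines.

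The log2 ratio of PGK1 to COX4I1 on the same scale was -0.05, -0.01 and 0.06 in LNCaP and 0.52, 0.57 and 0.57 in LNCaP-AI. The lines were apart by 0.46, and the difference was 0.56 (SE 0.11, 95% interval 0.30 to 0.81, adjusted p = 0.0184 by limma). For PGK1 to MTX1 the values were -0.04, 0.08 and -0.04 in LNCaP and 0.71, 0.79 and 0.75 in LNCaP-AI. The lines were apart by 0.63, and the difference of 0.75 (SE 0.11, 95% interval 0.49 to 1.01, adjusted p = 0.00555 by limma) was the largest of the 6 pairs, since MTX1 had the lowest fold change and PGK1 the highest.

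For these 3 ratios the exact permutation p was 0.1, the smallest possible. Features that passed the same test relative to GAPDH, COX4I1 and MTX1 made up 14.5%, 13.5% and 15.9% of the table. The ratio of PGK1 to MTX1 passed the test with any 1 array left out, with adjusted p from 0.0124 to 0.0361 by limma. The ratio to GAPDH lost the call without LNCaP replicate a (0.0513), LNCaP replicate c (0.0524) or LNCaP-AI replicate 3 (0.0522), and the ratio to COX4I1 without LNCaP replicate a (0.0793), LNCaP replicate b (0.0743) or LNCaP-AI replicate 3 (0.0847), all adjusted p by limma. Without any scaling between arrays, an alternative chosen after the data were seen, the difference of PGK1 from COX4I1 was 0.44 and did not pass (adjusted p = 0.0532 by limma), while that from GAPDH was 0.54 (0.0392) and that from MTX1 was 0.78 (0.00690). With the slide as a block the adjusted p by limma was 0.122 for PGK1 to GAPDH, 0.171 for PGK1 to COX4I1 and 0.0734 for PGK1 to MTX1.

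**Figure D3:**
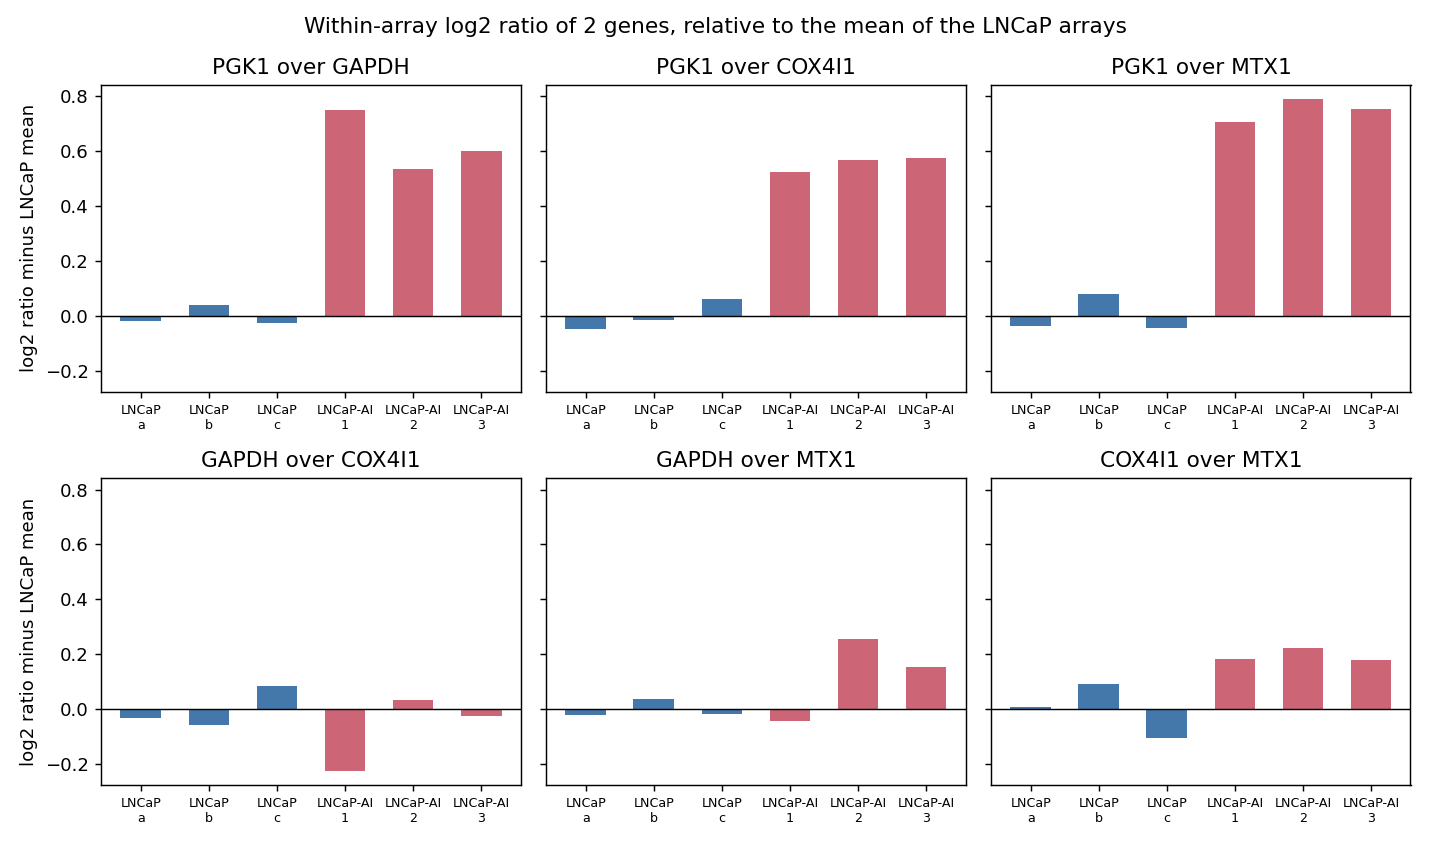
Within-array log2 ratio of 2 genes minus the mean of the 3 LNCaP arrays (y axis) for the 6 pairs of genes, 1 bar per array, LNCaP in blue and LNCaP-AI in red. All LNCaP-AI bars of the ratios with PGK1 on top lie between 0.52 and 0.79, and those of the other 3 pairs lie nearer to 0.

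The other 3 pairs did not pass the test. GAPDH differed from COX4I1 by -0.07 (95% interval -0.37 to 0.23, adjusted p = 0.776 by limma) and from MTX1 by 0.12 (95% interval -0.17 to 0.42, adjusted p = 0.584 by limma). Both intervals included differences in either direction. Between the mitochondrial genes, the log2 ratio of COX4I1 to MTX1 was 0.01, 0.09 and -0.10 in LNCaP and 0.18, 0.22 and 0.18 in LNCaP-AI. All 9 pairs of arrays were higher in LNCaP-AI, with a gap of 0.09, and the difference of 0.19 (95% interval -0.08 to 0.46) had an adjusted p of 0.324 by limma.

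The repeated spots also showed where an array read unevenly. On LNCaP-AI replicate 3 the 15 spots of the 4 genes beyond column 120 of the array deviated from their gene's mean by -0.05 on the log2 scale on average, and the 25 other spots by 0.03. On the other 5 arrays the corresponding mean for the 15 spots lay between -0.02 and -0.01. The deviation followed the column with a Pearson's r of -0.50 over the 40 spots of LNCaP-AI replicate 3, against -0.40 to 0.04 on the others. Spots of one array share its hybridization, and the part of this pattern in the results was not tested.

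**Figure D4:**
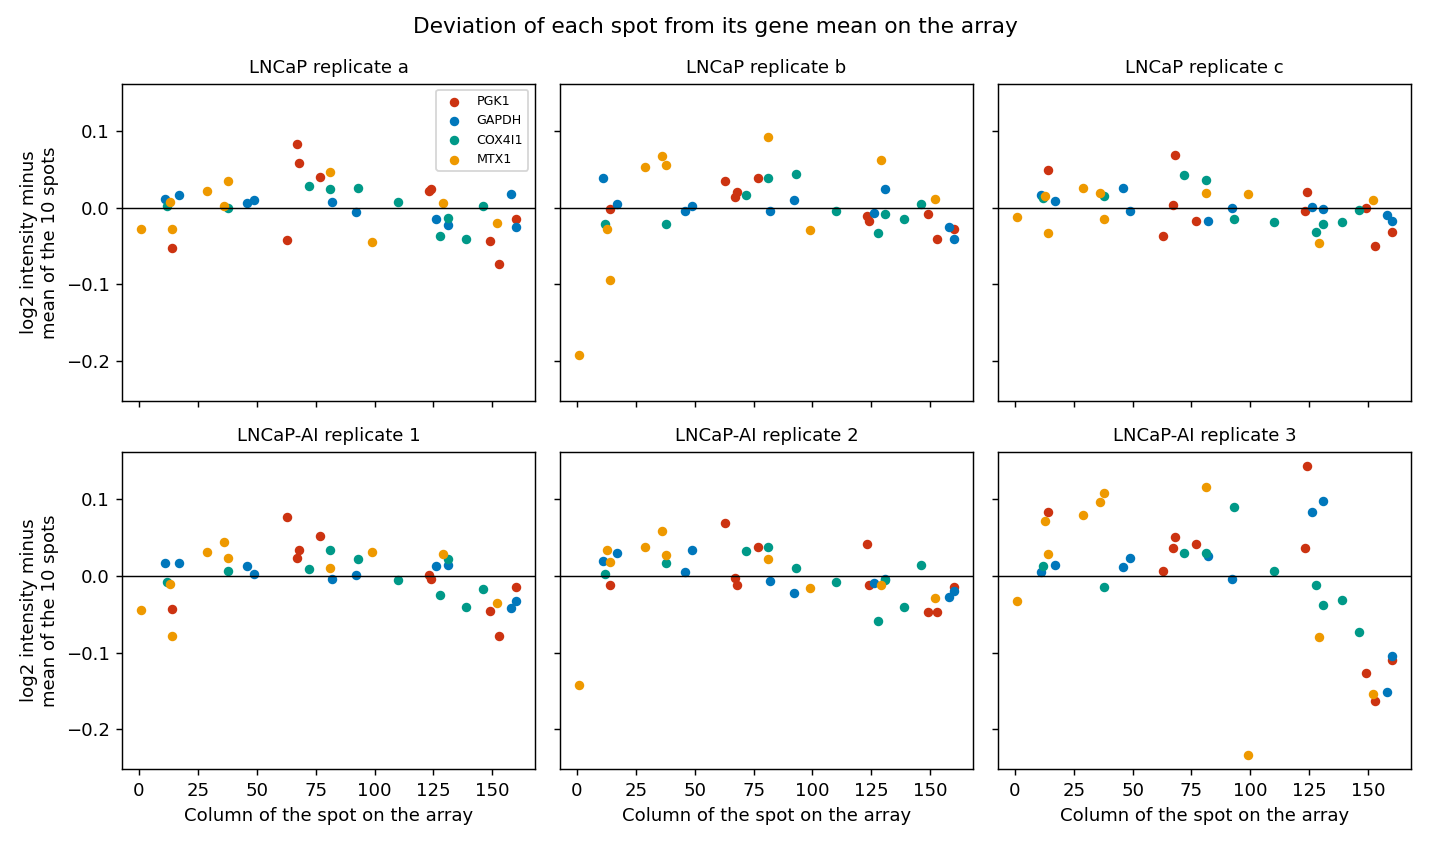
Deviation of each spot's log2 intensity from the mean of its gene's 10 spots on the array (y axis) against the spot's column on the array (x axis), 1 panel per array, colored by gene. Spots beyond column 120 average -0.05 on LNCaP-AI replicate 3 and between -0.02 and -0.01 on the other 5 arrays.

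Fold changes of the 4 genes were also set against those of all tested features under other scalings. PGK1 was 0.63 above the median log2 fold change of all tested features with quantile normalization. It was 0.64 above that median with 75th percentile scaling, with no scaling, or with scaling to the other 16 control genes or to a spike-in. These 4 settings differ by a constant shift of each array, so they give the same distance to the median by construction. Under those 4 scalings GAPDH was 0.10 and COX4I1 0.20 above the median, and MTX1 was at -0.14 against it. Scaling to the spike-in rested on 1 of 10 spike-in probes, the 1 that was well above background on all arrays. That probe was dim, with medians of 32.9 to 66.3 over the arrays. This scaling put the median log2 fold change of all features at 0.48. Under it 93.2% of the called features were higher in LNCaP-AI, and under scaling to the other 16 control genes, which put it at -0.13, 35.5% were, against 50.5% with quantile normalization. The sign of GAPDH and MTX1 depended on the scaling, whereas PGK1 was higher in LNCaP-AI under each.

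**Figure D5:**
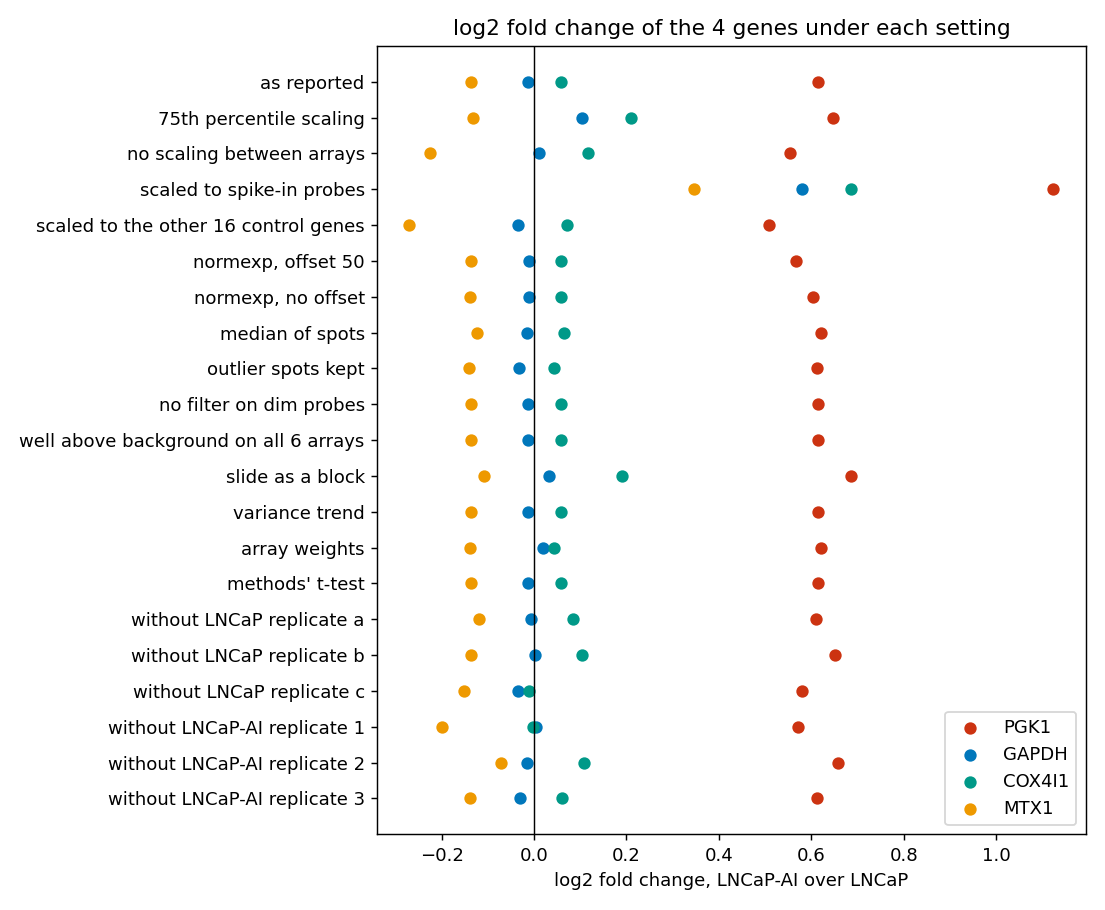
log2 fold change of LNCaP-AI over LNCaP (x axis) for PGK1, GAPDH, COX4I1 and MTX1 as reported and under each other setting (y axis), including each array left out in turn. PGK1 lies between 0.51 and 1.12 with all 6 arrays, to the right of the other 3 genes in every setting.

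Other genes of the pathways could not be described in the same way. Of 20 glycolytic genes and 26 mitochondrial genes listed for this comparison, the files name 2 each, which are the 4 genes above. The array files give 39087 of the tested features no gene name, and the other steps of glycolysis and respiration were not analysed here.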

How the data were processed

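RNA of 3 LNCaP and 3 LNCaP-AI samples was measured on the Arraystar Human LncRNA Microarray V3.0, 1 array per sample. The authors depleted rRNA, labeled with Cy3 and deposited the output of Agilent Feature Extraction 11.0.1.1 for each array. The deposited intensity of a spot is background-subtracted and not normalized between arrays. Groups were taken from the labels.

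Spots of controls, 600 spots of negative probes and outlier-marked spots were removed. The log2 of the intensity, with a floor of 1, was quantile-normalized across arrays, following the methods, and averaged over each probe's spots. Results for single spots and mean intensities kept the outlier-marked spots. The 39107 probes that exceeded background well on 3 or more arrays were fitted with limma 3.58.1 in R 4.3.3 (lmFit, eBayes), two-sided, with Benjamini-Hochberg adjustment and a threshold of 0.05. For a pair of genes, the second gene's log2 value was subtracted on each array before the fit. Exact permutation tests were two-sided. The number of arrays limits the precision. The script was tested on simulated data.

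The 4 genes are named with, for each, the control gene of highest Pearson's r. The genes, lists and tests were chosen with earlier results of these data known. RefSeq names matched for all 20 control genes. The reference assembly, GRCh38.p14, is not the build of the array files, and its coordinates are used for promoters alone. Markers of cell types could not be checked because the files do not name their probes. Alternatives were other scalings, background corrections, filters and spot summaries, the slide as a block, a variance trend, array weights, the methods' t-test (at an adjusted p of 0.05) and each array left out. The planned normexp correction used the median spot signal, since the files hold no mean signal column.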

Additional observations from a re-analysis of the deposited data

How the results depend on the processing

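The log2 fold change of PGK1 was above 0 in every setting tried, from 0.51 to 1.12 with 6 arrays, and lost the call by limma with no scaling (0.55, adjusted p = 0.194) and with the slide as a block (0.69, adjusted p = 0.0919). With each array left out it ranged from 0.57 to 0.66. The ratio of PGK1 to COX4I1 was 0.50, to GAPDH 0.65 and to MTX1 0.79 with the slide as a block, none of them past the threshold, and 0.53 to 0.59, 0.57 to 0.67 and 0.73 to 0.79 with an array left out. With no scaling, added after the data were seen, PGK1 to COX4I1 was 0.44 and lost the call (adjusted p = 0.0532 by limma). With the slide block the LNCaP-AI arrays are compared with 1 LNCaP array.

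GAPDH turned positive with 75th percentile scaling (0.10), no scaling (0.0103), the spike-in (0.58), the slide block (0.0321) and array weights (0.0185), and ranged from -0.0356 to 0.0046 with an array left out. COX4I1 passed the test with the spike-in (0.69, adjusted p = 0.0367 by limma) and ranged from -0.0113 to 0.11 with an array left out, below 0 without LNCaP replicate c or LNCaP-AI replicate 1. MTX1 turned to 0.35 with the spike-in and ranged from -0.20 to -0.07 with an array left out. GAPDH to COX4I1 ranged from -0.12 to 0.0073, GAPDH to MTX1 from 0.06 to 0.20 and COX4I1 to MTX1 from 0.14 to 0.24. The cause was not tested.

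Called probes numbered 5714, against 2954 with no scaling, 11287 with the spike-in, 1645 with the slide block, 15642 with array weights, 3800 by the methods' t-test and 2726 to 5585 with an array left out. Called control genes numbered 1, against 0 by limma with no scaling (1 at an unadjusted p under 0.05) and 0 with the slide block (3 unadjusted), 2 with 75th percentile scaling, scaling to the other 16 control genes, normexp without offset, the median of spots, outlier spots kept, no filter and a filter of all 6 arrays, 3 with normexp at an offset of 50, a variance trend or the methods' t-test, 5 with array weights, 8 with the spike-in and 0 to 2 with an array left out (3 unadjusted where 0). No paired analysis was possible because the lines share no replicate numbers.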
